A study of Mus musculus with 8 samples.

Results

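The integrated stress response regulators are 10 genes, taken by symbol from the 54838 genes of the count table: the eIF2 kinases Eif2ak3 (Perk) and Eif2ak4 (Gcn2), the transcription factors Atf4, Atf5 and Ddit3 (Chop), the feedback genes Trib3 and Ppp1r15a (Gadd34), and the stress targets Ddit4 (Redd1), Chac1 and Asns. They were measured in acute myeloid leukaemia (AML) cells carrying the RUNX1-RUNX1T1 fusion, on a C57BL/6 background, which were transplanted into Ptprca recipient mice that per the labels had been sublethally irradiated. Mice received vehicle (4 samples) or AG636, an inhibitor of the pyrimidine synthesis enzyme DHODH, b.i.d. at 100 mg/kg by gavage (4 samples). A single day of treatment is stated for this model, and the sort is given as cKit high cells in one place and as cKit+ CD11b- cells in another. The groups shared everything but the drug as far as the labels say. The leukaemia was an established tumour passed from cryopreserved cells, bone marrow and spleen are named without saying which sample came from which, and ages are not given. The labels do not say that each sample is a separate mouse, and the study's legend gives fewer mice per group than there are samples here, so p-values measure the spread between these samples, which may be partly technical.

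In the integrated stress response, kinases that sense unfolded protein in the endoplasmic reticulum (Eif2ak3) or uncharged tRNA (Eif2ak4) phosphorylate the initiation factor eIF2. Phosphorylated eIF2 blocks the exchange factor eIF2B and lowers translation in general, while upstream reading frames let the mRNA of Atf4, and likewise of Atf5 and Ddit3, be translated more. ATF4 protein then activates genes of amino acid supply and tRNA charging as well as feedback genes, so that the level of Atf4 mRNA need not follow that of ATF4 protein, which these data do not measure.

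Libraries read the 3′ ends of transcripts, so that a count reflects transcript number with little dependence on length. Each sample held 6120030 to 7162036 counts, and 10911 genes passed the filter on low counts. Levels are given as CPM, counts per 1000000 of the library size after scaling by trimmed mean of M-values (TMM). The progenitor genes Kit, Myb, Gata2 and Runx1 were abundant, but the myeloid granule genes Mpo, Elane, Ctsg and Prtn3 had at most 33 counts in any sample, and Cd33 at most 4. Ptprc, which encodes CD45, had at most 64 counts in any sample and Cd34 at most 223. All 11 erythroid genes listed (globins, Klf1, Gata1 and others) were expressed, with a summed level of 2705 to 6470 CPM in Vehicle and 5082 to 6617 CPM in AG636 samples. The summed level of the 11 AML progenitor genes was 1156 to 1357 CPM in Vehicle and 1365 to 1556 CPM in AG636. The defining markers therefore went only partly with the label AML cells. Markers of other lineages varied between samples. B and plasma cell markers summed to 50.4 to 91.9 CPM in Vehicle and to 343, 80.6, 49.6 and 240 CPM in AG636 samples 1 to 4, mostly from Igkc and Ighm. Megakaryocyte markers summed to 12.0 to 18.1 CPM in Vehicle and to 35.3, 13.1, 61.0 and 32.1 CPM in AG636 samples 1 to 4. Mature neutrophil markers summed to 44.7 to 105 CPM in Vehicle and 16.2 to 208 CPM in AG636, monocyte markers to 17.2 to 22.9 and 21.5 to 30.4 CPM, T and NK cell markers to 7.15 to 11.5 and 7.82 to 23.7 CPM, and stromal markers to 1.54 to 3.04 and 1.92 to 4.63 CPM with Cxcl12 at 0. Their part in the results was not tested, and in bulk samples fewer cells of a type and less RNA per cell cannot be told apart.

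Ddit4 was the only regulator that passed the test, rising 2.40-fold. Of the 10 regulators 9 were tested, 1 rose, 0 fell and 8 did not pass the threshold of 0.05 on the adjusted p-value (limma-voom). Among all genes tested 14.0% passed, 5.47% higher and 8.49% lower. At an unadjusted p under 0.05 there were 3 regulators, Ddit4, Ppp1r15a and Atf4, and the last of these was lower in AG636. The share of all genes tested below this unadjusted p is not given. This count and such counts in the lists below therefore have no background to be read against. The regulators and the lists below were chosen with earlier results of these data known, so shares called in them are descriptions only. Ddit4 was also the 1 tested regulator whose groups did not overlap, a pattern seen in 22.2% of all genes tested and, with AG636 higher, in 9.35%.

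**Figure D1:**
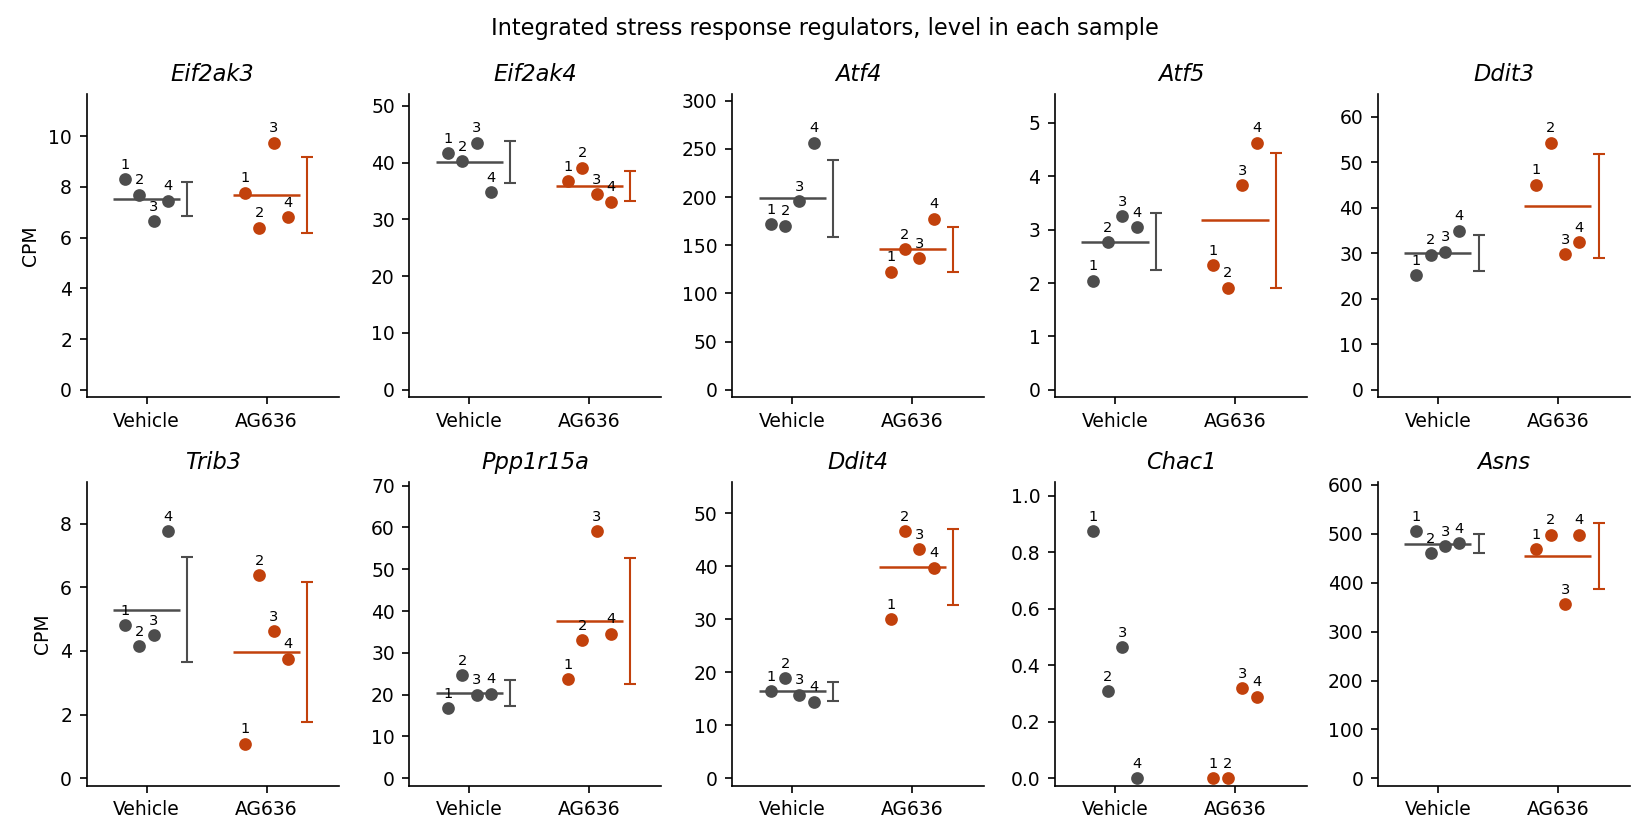
Level in CPM (y axis, linear from 0, scaled to each gene) of the 10 regulators in 4 Vehicle samples (grey) and 4 AG636 samples (orange), with replicate numbers beside the points. Horizontal lines are group means and bars the SD, left out for Chac1, which was not tested. Ddit4 is the gene whose groups lie apart, at 14.5 to 18.9 CPM in Vehicle and 30.0 to 46.6 CPM in AG636.

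Promoters of the regulators were searched, on both strands, for the core of the C/EBP-ATF response element through which ATF4 binds (TGATGNAA, N being any base) and for the cyclic AMP response element (TGACGTCA), in the 250 bases before the start site. The RefSeq promoter table (GRCm38.p6) matched all 10 genes with 12 promoters. The first motif was found in 2 of the 12 promoters, those of Asns and Chac1, and in 3.45% of all 32851 promoters. The second was found in 1 of the 12, that of Ppp1r15a, and in 1.55% of all promoters. No match in Ddit4, Atf4, Ddit3 or Trib3 says only that these letters are not in this window. Shown are the promoters of Ddit4, the regulator that rose, Asns, the classical amino acid response target, and Ppp1r15a, 5′ to 3′ on the strand of the gene, with motif matches in capitals.

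Ddit4 promoter, minus strand, chr10:59951771-59952020: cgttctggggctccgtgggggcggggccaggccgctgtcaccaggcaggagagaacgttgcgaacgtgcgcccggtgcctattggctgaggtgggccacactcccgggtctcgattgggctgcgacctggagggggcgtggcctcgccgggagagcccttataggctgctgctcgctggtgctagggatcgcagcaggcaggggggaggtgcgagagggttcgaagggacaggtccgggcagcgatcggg

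Asns promoter, minus strand, chr6:7693210-7693459: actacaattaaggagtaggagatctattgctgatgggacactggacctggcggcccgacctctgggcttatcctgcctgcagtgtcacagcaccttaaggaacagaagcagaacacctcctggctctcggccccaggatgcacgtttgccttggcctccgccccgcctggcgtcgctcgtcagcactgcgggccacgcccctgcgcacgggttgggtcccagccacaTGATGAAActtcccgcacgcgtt

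Ppp1r15a promoter, minus strand, chr7:45526269-45526518: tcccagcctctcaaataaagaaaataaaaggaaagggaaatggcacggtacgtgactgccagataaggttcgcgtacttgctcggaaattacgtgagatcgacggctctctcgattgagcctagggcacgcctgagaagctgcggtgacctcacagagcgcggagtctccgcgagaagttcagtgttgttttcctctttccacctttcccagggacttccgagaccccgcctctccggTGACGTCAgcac

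The Asns match lies 23 to 16 bases before the start site (positions -23 to -16) and the Ppp1r15a match at -12 to -5. Start sites are those of RefSeq. The windows shown for Asns and Ddit4 run partly into these genes as counted, and the Asns match lies within that stretch. In Chac1 the match lies at -193 to -186 on the opposite strand and reads TTGCATCA on the strand of the gene.

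Neither of the 2 eIF2 kinases among the regulators passed the test. Eif2ak4, the sensor of amino acid shortage on chromosome 2, was at 41.7, 40.3, 43.5 and 34.8 CPM in Vehicle samples 1 to 4 and at 36.7, 39.1, 34.5 and 33.1 CPM in AG636 samples 1 to 4. The groups overlapped, with the lowest Vehicle sample below 2 of the AG636 samples, and the log2 fold change was -0.16 (SE 0.11, 95% interval -0.39 to 0.07, adjusted p = 0.336). Eif2ak3, the kinase of the endoplasmic reticulum on chromosome 6, ranged from 6.65 to 8.30 CPM in Vehicle and from 6.38 to 9.73 CPM in AG636. Its log2 fold change was 0.01 (SE 0.19, 95% interval -0.41 to 0.42, adjusted p = 0.982), from 40 to 61 counts a sample, and this interval leaves room for a change of about 0.4 in either direction.

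Of 20 other genes of the eIF2 circuit, all of them tested, 0 rose and 6 fell, with a median log2 fold change of -0.22 against -0.01 for all genes tested. The 6 are 30.0% of the 20, beside 8.49% lower among all genes tested. A log2 fold change above 0 was seen in 5 of the 20 and below 0 in 15. The 3 with the smallest p-values were Eif2s3x, the gamma subunit of eIF2 (log2 fold change -0.55, SE 0.09, adjusted p = 0.00404), Ppp1ca, a catalytic subunit of the phosphatase that PPP1R15A directs to eIF2 (-0.36, SE 0.08, adjusted p = 0.0187), and Eif2b1, a subunit of eIF2B (-0.56, SE 0.13, adjusted p = 0.0212). Eif2s1, the subunit that is phosphorylated, Eif2b5 and Dnajc3, an inhibitor of the kinases, also fell. The eIF2 kinases Eif2ak1 (0.20, SE 0.13, adjusted p = 0.321) and Eif2ak2 (-0.11, SE 0.18, adjusted p = 0.716) are also in this list and did not pass. The count of 6 dropped to 1 without Vehicle sample 1, 3 or 4, to 3 without Vehicle sample 2, AG636 sample 1 or AG636 sample 2, and to 2 with scaling by library size alone. Calls over all genes moved as well, from 926 lower with all samples to between 467 and 937 lower with 1 sample left out. Ppp1ca and Eif2b1 lost the call without Vehicle sample 1, 3 or 4, whereas Eif2s3x passed in all 8 fits that left out 1 sample.

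Atf4, the central transcription factor (chr15:80255184-80257541, 2358 exonic bases), was lower on average in AG636 but did not pass. It was at 172, 170, 196 and 256 CPM in Vehicle samples 1 to 4 and at 123, 146, 136 and 178 CPM in AG636 samples 1 to 4. All 4 AG636 samples lay below the Vehicle mean and 3 below the lowest Vehicle sample, while AG636 sample 4 lay among the Vehicle samples. The means were 199 ± 40.2 and 146 ± 23.4 CPM (SD, n = 4 each), a difference of -0.44 on the log2 scale (SE 0.15, 95% interval -0.77 to -0.11, adjusted p = 0.0716, limma-voom). Over 20 alternative fits the adjusted p-value ran from 0.0175 to 0.218, and 3 of them called Atf4 lower: DESeq2 (0.0468), the fit with the replicate number as a block (0.0175) and the fit without AG636 sample 4 (0.0401). The log2 fold change was -0.29 without Vehicle sample 4, the sample with the highest level.

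Ddit3, which encodes CHOP, a factor linked to cell death under prolonged stress (chr10:127290774-127296288), split the AG636 group. It was at 25.2, 29.7, 30.3 and 35.0 CPM in Vehicle samples 1 to 4 and at 45.1, 54.3, 29.8 and 32.4 CPM in AG636 samples 1 to 4. AG636 samples 1 and 2 lay above every Vehicle sample and AG636 samples 3 and 4 among them. The means were 30.0 ± 4.01 and 40.4 ± 11.4 CPM, and the log2 fold change of 0.39 (SE 0.19, 95% interval -0.03 to 0.81) did not pass (adjusted p = 0.191). It was 0.24 without AG636 sample 2, the highest sample, and 0.62 without Vehicle sample 4 and AG636 sample 3 together (adjusted p = 0.0574). Ddit3 shares 68 exonic bases at its 3′ end with Mars on the opposite strand. Of 455 genes whose every exonic base is shared with a gene on the other strand 89 held counts, against 0 of 726 such genes on the same strand, so the counting appears to have used strand.

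Atf5, a relative of Atf4 that is linked to mitochondrial stress (chromosome 7), had only 12 to 32 counts a sample. Its level was 2.04 to 3.25 CPM in Vehicle and 1.92 to 4.63 CPM in AG636, a difference of 0.14 on the log2 scale (SE 0.33) with an adjusted p of 0.812. Its 95% interval, -0.59 to 0.87, covers changes as large as those of several called genes, so this fit does not settle whether Atf5 changed by such an amount.

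Of the 17 partners of ATF4 and factors it induces, 10 were tested and 0 passed in either direction (limma-voom), with a median log2 fold change of 0.01. At an unadjusted p under 0.05 there were 3, and edgeR and DESeq2 called 0. The matching shares of all genes tested are not given, so these counts have no background to be read against. Nfe2l1, a factor that can pair with small Maf proteins, had the smallest p-value, and differed by -0.36 on the log2 scale (SE 0.11) at an adjusted p of 0.0581. Atf3, a well known target of ATF4, had 0 counts in all 8 samples. Without AG636 sample 3, 1 gene of this list rose and 1 fell.

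Ppp1r15a, whose product directs the dephosphorylation of eIF2 and so ends the response (chr7:45522916-45526268), was higher on average in AG636. It was at 16.8, 24.6, 20.0 and 20.2 CPM in Vehicle samples 1 to 4 and at 23.6, 33.0, 59.0 and 34.5 CPM in AG636 samples 1 to 4. All 4 AG636 samples lay above the Vehicle mean and 3 above the highest Vehicle sample, with AG636 sample 3 far above the rest. The means were 20.4 ± 3.22 and 37.6 ± 15.1 CPM, a difference of 0.81 on the log2 scale (SE 0.25, 95% interval 0.25 to 1.37, adjusted p = 0.0559, limma-voom). The call was made in 9 of 20 alternative fits, with adjusted p-values from 0.00462 (DESeq2) to 0.146 (without Vehicle sample 1). Without AG636 sample 3 the log2 fold change was 0.57 and passed (adjusted p = 0.0490).

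AG636 sample 3 also stood out for immediate-early genes, which are induced within minutes by many stimuli. In a list of 11 such genes, drawn up after these values were seen, 10 were highest in AG636 sample 3 and Atf3 was at 0. Their summed level was 156, 205, 148 and 120 CPM in Vehicle samples 1 to 4 and 88.5, 85.2, 737 and 280 CPM in AG636 samples 1 to 4. Fos alone reached 60.0 CPM in AG636 sample 3 and at most 8.15 CPM in the other samples. Pearson's r between the summed level and Ppp1r15a, both in CPM, over these 8 samples was 0.89, a value that AG636 sample 3 weighs on heavily, and with Ddit4 it was 0.44. AG636 samples 1 and 2, which had the most Ddit3, had the lowest summed levels. All 4 AG636 samples had more Ddit4 than any Vehicle sample. The part of the immediate-early genes in the differences of Ppp1r15a and Ddit4 was not tested.

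**Figure D2:**
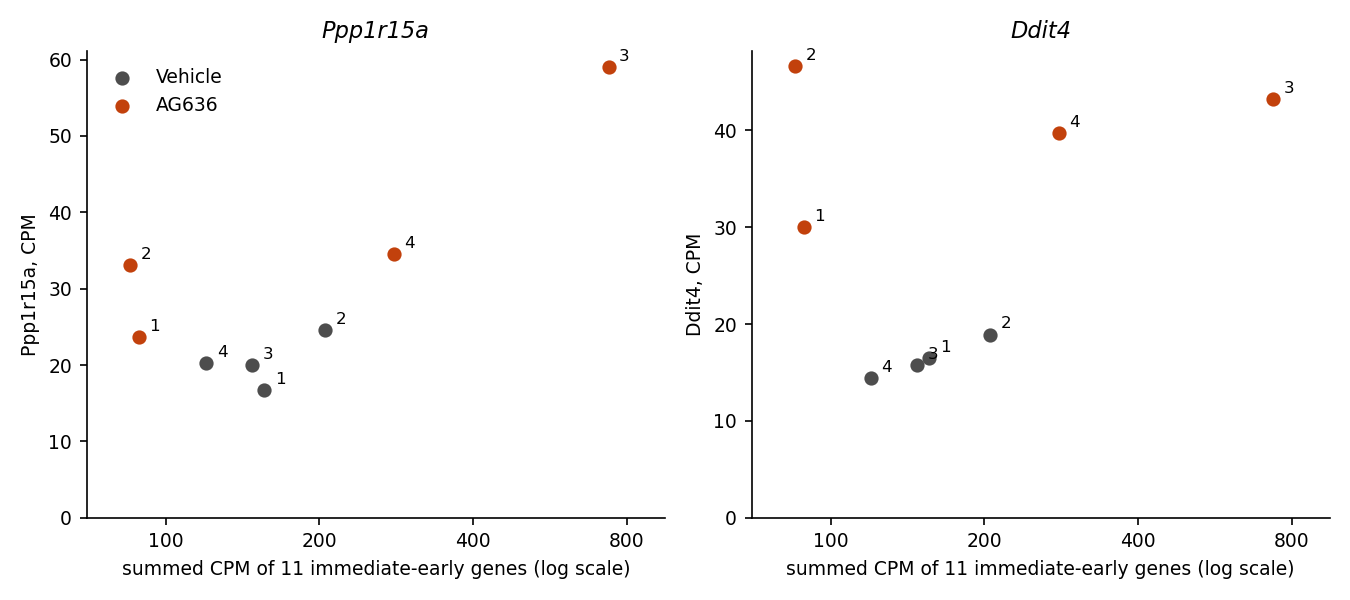
Level of Ppp1r15a (left) and Ddit4 (right) in CPM on the y axis against the summed CPM of 11 immediate-early genes (x axis, log scale) in 4 Vehicle (grey) and 4 AG636 samples (orange), with replicate numbers. AG636 sample 3 is at the far right with 737 CPM, and for Ddit4 all 4 AG636 samples lie above all Vehicle samples.

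Trib3, a pseudokinase that restrains ATF4 and CHOP (chromosome 2), was at 4.81, 4.15, 4.49 and 7.76 CPM in Vehicle samples 1 to 4 and at 1.09, 6.38, 4.63 and 3.76 CPM in AG636 samples 1 to 4. The groups overlapped and the spread was wide, with 7 to 51 counts a sample. The log2 fold change was -0.61 (SE 0.45, 95% interval -1.60 to 0.37, adjusted p = 0.385), and it was -0.11 without AG636 sample 1, the lowest sample.

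Ddit4, which restrains mTORC1 through the TSC complex, rose (chr10:59949669-59951834, 1755 exonic bases). It was at 16.5, 18.9, 15.8 and 14.5 CPM in Vehicle samples 1 to 4 and at 30.0, 46.6, 43.2 and 39.7 CPM in AG636 samples 1 to 4. Every AG636 sample lay above every Vehicle sample, with AG636 sample 1 nearest to them. These levels rest on 95 to 123 counts in each Vehicle sample and 193 to 292 in each AG636 sample. The means were 16.4 ± 1.87 and 39.9 ± 7.16 CPM (SD, n = 4 each), a log2 fold change of 1.27 (SE 0.16) or 2.40-fold (95% interval 1.87 to 3.09, adjusted p = 0.00214, limma-voom). Ddit4 passed in all 20 alternative fits, with an adjusted p-value of at most 0.0120 and log2 fold changes of 1.18 to 1.39.

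Chac1, which degrades glutathione and is among the genes most strongly induced by ATF4 and CHOP, was too low to test. It had 6, 2, 3 and 0 counts in Vehicle samples 1 to 4 and 0, 0, 2 and 2 in AG636 samples 1 to 4. The totals were 11 and 4 counts, and 3 counts correspond to 0.434 to 0.479 CPM in these libraries, so that most samples were at or below the level of 3 counts.

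Asns, which makes asparagine and is the textbook target of the amino acid response (chr6:7675169-7693254), was at 505, 460, 474 and 480 CPM in Vehicle samples 1 to 4. In AG636 samples 1 to 4 it was at 469, 498, 357 and 498 CPM. AG636 sample 3 was below all others, and the other AG636 samples lay within the Vehicle range. The means were 480 ± 18.7 and 455 ± 67.2 CPM, which differ by -0.09 on the log2 scale (SE 0.11, 95% interval -0.33 to 0.15, adjusted p = 0.629). The counts were high, 2235 to 3467 a sample, and the upper end of the interval limits an increase to 0.15 on the log2 scale.

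**Figure D3:**
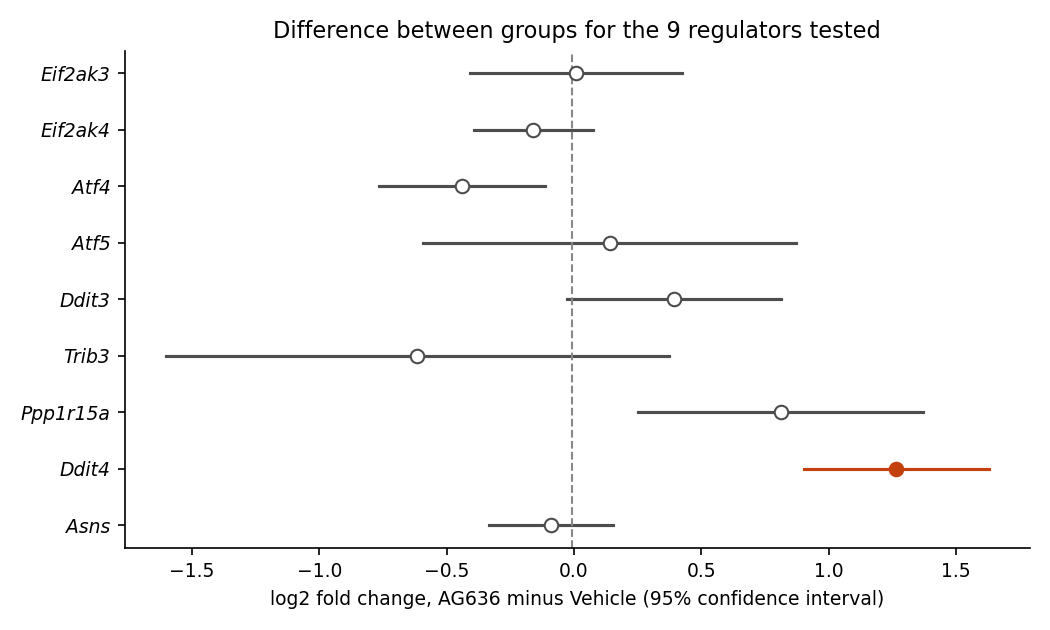
Log2 fold change, AG636 minus Vehicle (x axis), of the 9 regulators tested, each with its 95% confidence interval from limma-voom, and the median of all genes tested as a dashed line. Ddit4 (filled, adjusted p = 0.00214) is the 1 regulator that passed, and the intervals of Ppp1r15a and Atf4 do not reach 0 although their adjusted p-values are 0.0559 and 0.0716.

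Apart from the regulators, 54 targets of ATF4 or CHOP were listed, some of which are also targets of p53. Of the 39 tested, 2 rose, 14 fell and the others did not pass, with a median log2 fold change of -0.31 against -0.01 for all genes tested. The 14 are 35.9% of the 39, beside 8.49% lower among all genes tested, a description, since the lists were chosen with earlier results of these data known. The 2 that rose are 5.13%, near the 5.47% higher among all genes tested. The count that fell was 9 without Vehicle sample 2, 3 or 4 or AG636 sample 1, and 9 with scaling by library size alone, which moves the calls over all genes from 597 higher and 926 lower to 918 higher and 571 lower. Leaving out 1 sample moved the calls over all genes to between 467 and 937 lower.

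Among amino acid and one-carbon genes 17 of 23 were tested, 0 rose and 7 fell (median log2 fold change -0.36). The 7 are 41.2% of those tested, beside 8.49% lower among all genes. The glutamine transporter Slc1a5 fell from 115 ± 3.32 to 59.8 ± 11.9 CPM (log2 fold change -0.95, adjusted p = 0.00216). The cationic amino acid transporter Slc7a1 fell from 98.2 ± 13.4 to 51.8 ± 10.6 CPM (-0.93, adjusted p = 0.00454). Psph, the last enzyme of serine synthesis, fell from 72.7 ± 13.5 to 44.4 ± 8.28 CPM (-0.71, adjusted p = 0.0181), a call that was lost without Vehicle sample 3. Phgdh, Shmt2, Aldh18a1 and Slc7a5, which serve serine, glycine, proline and leucine supply, were the others that fell. The count of 7 was 3 without Vehicle sample 3, 4 without Vehicle sample 1, 2 or 4 or AG636 sample 1 or 2, and 4 with library size alone, and 1 gene rose without AG636 sample 1. With 1 sample left out, 467 to 937 of all genes were called lower, beside 926 with all samples.

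All 12 cytosolic tRNA synthetases under ATF4 control that were listed had a log2 fold change below 0, and 7 of them fell (median -0.42). The 7 are 58.3%, beside 8.49% lower among all genes. Nars fell from 213 ± 21.3 to 144 ± 14.5 CPM (log2 fold change -0.56, adjusted p = 0.00588). Tars (-0.61, adjusted p = 0.00925) and Iars (-0.61, adjusted p = 0.00996) fell by similar amounts, and these 3 passed in all 8 fits that left out 1 sample. Eprs, Gars, Lars and Yars fell as well. The count ran from 5 to 6 when 1 sample was left out, and that of all genes called lower ran from 467 to 937.

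Among the other targets of ATF4 and CHOP 10 of 19 were tested, 2 rose and 0 fell (median log2 fold change 0.10). The 2 are 20.0% of those tested, beside 5.47% higher among all genes. Bbc3, which encodes the death-promoting protein PUMA and is also a target of p53, rose from 27.2 ± 1.97 to 46.9 ± 3.99 CPM (log2 fold change 0.79, adjusted p = 0.00218). Klhl24 rose from 49.6 ± 5.21 to 96.6 ± 40.0 CPM (0.89, adjusted p = 0.0273), and its call was lost, leaving 1, without any 1 of the 4 Vehicle samples or without AG636 sample 1. Calls over all genes were 221 to 769 higher with 1 sample left out, beside 597 with all samples.

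**Figure D4:**
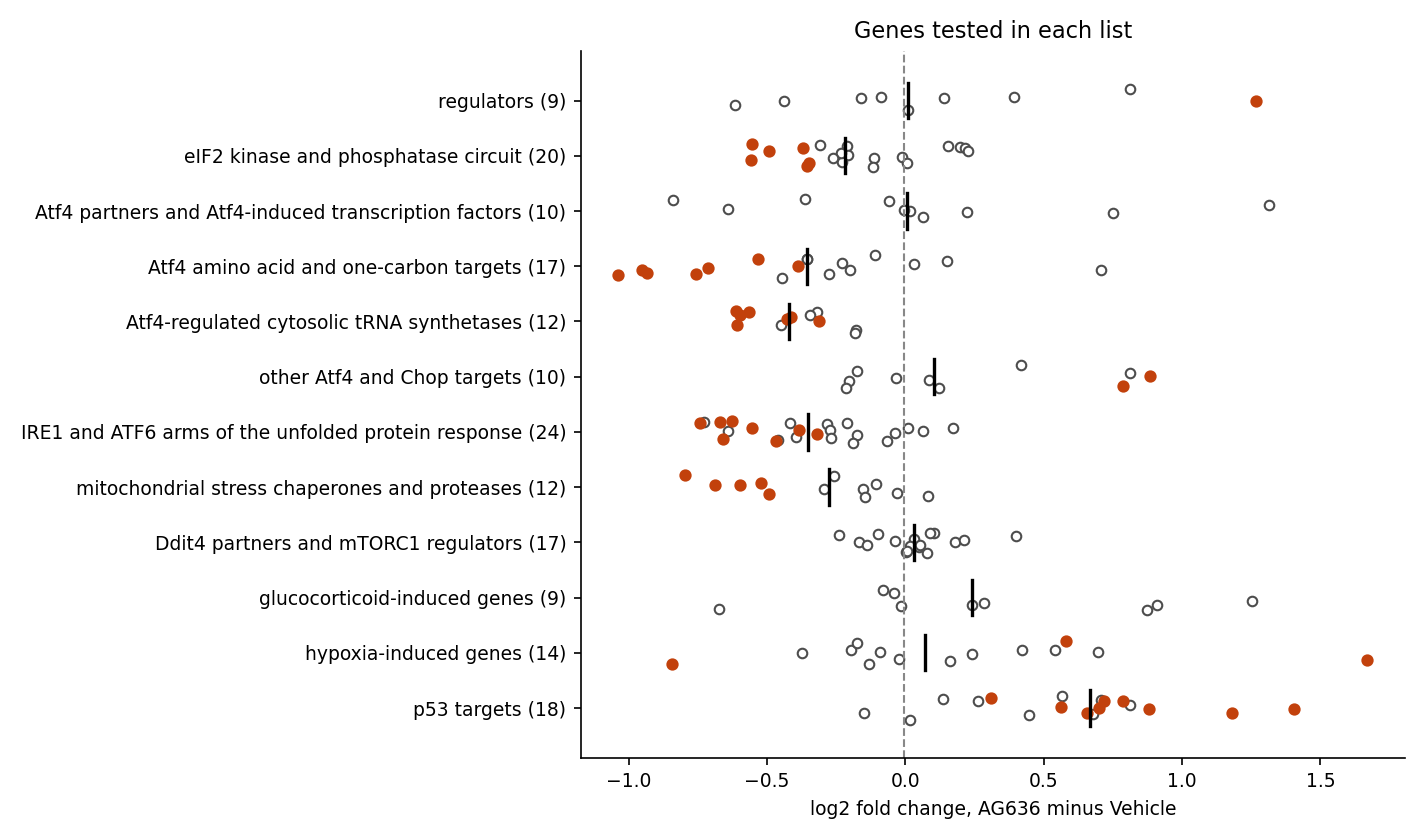
Log2 fold change, AG636 minus Vehicle (x axis), of the genes tested in the regulators and 11 other lists, with the number of genes tested in parentheses. Filled points passed an adjusted p of 0.05, short bars are list medians and the dashed line is the median of all genes tested, with the tRNA synthetases (median -0.42) to the left and the p53 targets (median 0.67) to the right.

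The other arms of the unfolded protein response, IRE1 and ATF6, control chaperones and folding enzymes. Of 25 listed genes 24 were tested, 0 rose, 8 fell and the others did not pass (median log2 fold change -0.35). The 8 are 33.3% of those tested, beside 8.49% lower among all genes. The lectin chaperone Canx (-0.38, adjusted p = 0.0097), the disulfide isomerase Pdia3 (-0.47, adjusted p = 0.0118) and the co-chaperone Dnajb11 (-0.66, adjusted p = 0.0133) had the smallest p-values and passed without any 1 sample. The count of 8 was 4 without Vehicle sample 1, 3 or 4 and 5 without Vehicle sample 2 or AG636 sample 1, and it was 12 without AG636 sample 3. Calls over all genes also moved, between 467 and 937 lower with 1 sample left out, beside 926 with all samples.

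Of 12 mitochondrial chaperones and proteases, whose loss of balance can also start the response, 0 rose and 5 fell (median log2 fold change -0.28). The 5 are 41.7%, beside 8.49% lower among all genes. Hspd1, the mitochondrial Hsp60, fell from 435 ± 53.4 to 250 ± 28.0 CPM (-0.80, adjusted p = 0.00218). Its partner Hspe1 (-0.69, adjusted p = 0.00216) and the mitochondrial Hsp70 gene Hspa9 (-0.60, adjusted p = 0.00529) fell as well, and these 3 passed in all 8 fits that left out 1 sample.

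Ddit4 is also known to respond to p53, glucocorticoids and low oxygen, so genes of these programmes and of its own pathway were set beside it. Among p53 targets 18 of 24 were tested, 9 rose and 0 fell (median log2 fold change 0.67), against 5.47% higher among all genes. Psrc1 (0.88, adjusted p = 0.00109), Bbc3 (above) and Trp53inp1, a p53 cofactor (1.40, adjusted p = 0.00472), had the smallest p-values. This list shares 5 genes with the other targets of ATF4 and CHOP, of which 1, Bbc3, passed.

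Among glucocorticoid-induced genes 9 of 13 were tested and 0 passed (limma-voom, median log2 fold change 0.24), with 2 at an unadjusted p under 0.05 and 1 called by edgeR and by DESeq2. Shares of all genes tested are not given for the unadjusted p or for these 2 tools. A log2 fold change above 0 was seen in 5 of the 9 and below 0 in 4, among the latter Fkbp5 (-0.67, SE 0.43, adjusted p = 0.314). Tsc22d3 (Gilz) was nearest to the threshold at 0.91 (SE 0.28, adjusted p = 0.0544). It passed without AG636 sample 1 and in 8 fits with other tools, scaling, filters or the replicate block.

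Among hypoxia-induced genes 14 of 19 were tested, 2 rose and 1 fell (median log2 fold change 0.07). The 2 are 14.3% of those tested, beside 5.47% higher among all genes. The 1 that fell is 7.14%, near the 8.49% lower among all genes. Bnip3, a mitophagy receptor, rose from 3.48 ± 0.80 to 12.2 ± 6.67 CPM (1.67, adjusted p = 0.0288) and lost the call without any 1 of the Vehicle samples. Pdk1, which restrains pyruvate oxidation, rose (0.58, adjusted p = 0.0267) and lost the call without Vehicle sample 1, 3 or 4 or AG636 sample 1. Pfkfb3, a glycolytic regulator, fell (-0.85, adjusted p = 0.0337) and lost the call without Vehicle sample 1, 2 or 3 or AG636 sample 1 or 2. The count that rose was 0 without Vehicle sample 1, 3 or 4 and 1 without Vehicle sample 2. With 1 sample left out, 221 to 769 of all genes were called higher, beside 597 with all samples.

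Of 21 partners of Ddit4 and regulators of mTORC1, 17 were tested and 0 passed (limma-voom, median log2 fold change 0.03), with 1 at an unadjusted p under 0.05 and 0 called by edgeR or DESeq2. Here too the matching shares of all genes tested are not given. Rptor, the scaffold of mTORC1, had the smallest p-value, and differed by 0.40 on the log2 scale (SE 0.14) at an adjusted p of 0.0847. It passed when AG636 sample 3 was left out, and 1 gene of this list fell without AG636 sample 2 or 4. The part of p53, glucocorticoid or hypoxia programmes in the rise of Ddit4 was not tested.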

How the data were processed

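RNA was measured with a QuantSeq 3′ mRNA kit in 4 Vehicle and 4 AG636 samples. The table deposited by the authors holds raw counts of reads for each gene, made by trimming with cutadapt, mapping to mm10 with HISAT2 and counting with the subread package. The submitters' processing notes name cutadapt 1.9.1, HISAT2 2.0.4 and Subread 1.5.0-p3, and the study's methods give other versions of cutadapt and Subread and no version of HISAT2. Samples were grouped by their titles.

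The regulators and gene lists were chosen with earlier results of these data known. Ddit3 was taken as ENSMUSG00000025408, since a second identifier with that symbol had 0 counts. Genes passing filterByExpr (minimum count 10) were scaled by TMM and compared with voom in limma (3.58.1, with edgeR 4.0.16 under R 4.3.3), fitting 8 samples at once, two-sided, with Benjamini-Hochberg adjustment over 10911 genes. The fit was tested on simulated data. No pair of samples within a group agreed within sampling noise by a chi-square test. Named are the regulators, in each other list up to 3 passing genes per direction with the smallest p-values (or the 1 gene with the smallest p-value where none passed), and for Atf4 and Ddit4 the 3 genes with the most similar pattern. Further genes of lists were named after their values were seen. Alternatives were edgeR's quasi-likelihood test, DESeq2 (1.42.0), other scalings and filters, a replicate block, and samples left out.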

Additional observations from a re-analysis of the deposited data

Results flagged for a closer look

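The summed level of 11 T and NK cell markers was 7.15 CPM in Vehicle sample 4 and 10.9 to 11.5 CPM in the other Vehicle samples, a gap beyond Dixon's critical ratio for 4 samples. It was the 1 value so placed among 38 combinations of measure and group, where about 1 in 20, or 1.9, would be by chance. None of the regulators had such a value in either group.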

How the results depend on the processing

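Leaving out each sample in turn gave 688 to 1706 changed genes, 221 to 769 higher and 467 to 937 lower. An adjusted p under 0.01 left 435 (140 higher, 295 lower) while requiring a log2 difference of 1 or more left 216 (150 higher, 66 lower). DESeq2 called 946 genes higher, and its count of lower genes is not given, so the balance of directions in that fit cannot be read here. Library size alone gave 918 higher and 571 lower. Of the regulators, 2 rose (Ddit4 and Ppp1r15a) with edgeR's quasi-likelihood test, DESeq2, limma-trend, sample quality weights, library size alone and at least 10 counts in every sample, 1 to 2 rose with 1 sample left out, and 1 fell (Atf4) with DESeq2 (0 to 1 with 1 sample left out). With the replicate number as a block 2 rose and 1 fell. Same-numbered samples did not deviate together (correlations of -0.14, 0.01, 0.20 and 0.14, and 1 of 4 samples closest to its own number), so the numbers were not taken as pairs. Of the ATF4 or CHOP targets, 1 to 2 rose and 9 to 13 fell with 1 sample left out, 1 rose and 5 fell at 0.01, 0 rose and 1 fell at a log2 difference of 1 or more, and 9 fell with library size alone.

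Log2 fold changes near 0 changed sign when samples were left out, from -0.11 to 0.084 for Eif2ak3, -0.058 to 0.34 for Atf5 and -0.14 to 0.022 for Asns. Without Vehicle sample 4 and AG636 sample 3 together, an alternative added after the data were seen, they were -0.090 for Eif2ak3 and 0.047 for Asns, Ddit4 was at 1.19 (adjusted p = 0.00666), Ddit3 at 0.62 (0.0574), Ppp1r15a at 0.60 (0.0677) and Atf4 at -0.26 (0.218). The cause was not tested. Depth limits Chac1, Trib3, Atf5 and Eif2ak3, and Trib3 was not tested where at least 10 counts in every sample were required.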

Other observations

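Over the 8 samples, the genes whose log2 CPM was most like that of Atf4 among 5261 genes of sufficient level were Swi5 (Pearson's r 0.97), Qdpr (0.96, dihydropteridine reductase) and Tipin (0.96, a replication fork protein). For Ddit4 they were Taok1 (0.99), Apc (0.98, a scaffold of Wnt signalling) and Chd3 (0.98, a chromatin remodeller). These points share the libraries and the division into groups, and the highest of many correlations over 8 samples are given as a description.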
